A study of Homo sapiens with 15 samples.

Results

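The nuclear-encoded subunits of the respiratory chain and ATP synthase were followed through 15 RNA sequencing libraries of cultures labelled HepG2. Members were taken by gene symbol (NDUFA, NDUFAB, NDUFB, NDUFC, NDUFS and NDUFV with a number, UQCR, SDHA to SDHD, COX4 to COX8 and ATP5), without pseudogene names and hyphenated names. Of 63241 genes in the deposited table, 271 matched these names. A total of 175 were left out as names ending in P or P plus digits and 8 as hyphenated, which left 88 candidates. Of these, 81 reached at least 1 TPM (a length-normalised share of the transcripts in a library) in at least 3 libraries and are the members described here, among 12950 genes that passed the same filter. They were 39 subunits of complex I, 4 of complex II, 8 of complex III, 12 of complex IV and 18 of complex V. The 7 candidates under the filter were COX4I2, COX6A2, COX7A1, COX7B2, COX8C, UQCRHL and ATP5MGL.

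The respiratory chain passes electrons that complex I takes from NADH, and complex II from succinate, through coenzyme Q to complex III, through cytochrome c to complex IV and so to oxygen. Complexes I, III and IV pump protons across the inner mitochondrial membrane, and complex V, the ATP synthase, lets them return and makes ATP. Most subunits are encoded in the nucleus and imported, while the mitochondrial genome encodes a small hydrophobic set in every complex except complex II. In liver cells the chain takes up the electrons that beta-oxidation of fatty acids releases.

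Each of the 5 groups held 3 cultures. Free fatty acids at 500 µM were given to the FFA cultures. The FCL, FCM and FCH cultures were given the same 500 µM together with 25, 50 or 100 µM of C3R (cyanidin-3-rutinoside, an anthocyanin), and NC was the blank control. The labels call the replicates biological but do not say how the cultures were separated, so the p-values speak only of the variation among these cultures. HepG2 is a human hepatoma line, and the labels give the cell type as hepatocyte. The defining hepatocyte transcripts did not bear out that label. ALB lay between 0.0947 and 1.67 TPM, AFP between 0 and 0.13 TPM, APOB between 0 and 0.09 TPM and TTR between 0 and 0.32 TPM, while KRT7, a keratin of cholangiocytes and other epithelia, lay between 1626 and 2781 TPM. The other cholangiocyte markers listed were low, with KRT19 between 0.57 and 1.6 TPM, SOX9 up to 0.38, EPCAM up to 0.4 and CFTR up to 0.04 TPM. Of 8 hepatocyte markers, APOA1 (6.18 to 14.7 TPM) and SERPINA1 (6.95 to 14.2 TPM) reached 1 TPM in every library. Of 6 stellate cell markers, COL1A1 (30.8 to 62.8 TPM) and ACTA2 (7.97 to 15.8 TPM) did so too, while DCN stayed at or under 0.91 TPM and LUM at or under 0.33 TPM. The cultures are therefore called by their labelled group, with no cell type of their own. In each library 11268 to 12293 genes reached 1 TPM, and correlations between libraries of the same group were 0.966 to 0.987 on the log2(TPM + 1) scale. TPM carry no depth, so the depth of the libraries is unknown. FCL replicate 2 and FCM replicate 3 stood apart in the members described here, and FCM replicate 3 and the FCH libraries are those numbered 12 to 15 in the labels. The numbers follow the order of the samples, and whether libraries 12 to 15 were handled apart from the others is not known.

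Levels differed widely between subunits. Per length, over the 15 libraries, the highest means were those of ATP5MF (1893 TPM), a small membrane subunit of the ATP synthase, ATP5F1B (1502 TPM), the catalytic beta subunit, and COX7A2 (1405 TPM), a small subunit of complex IV. The lowest were those of COX6B2 (1.29 TPM), a testis isoform, and the complex I subunits NDUFA5 (4.77 TPM) and NDUFV3 (11.6 TPM). The median of the members' means was 177 TPM in complex I, 152 TPM in complex II, 114 TPM in complex III, 483 TPM in complex IV and 269 TPM in complex V. COX6B2 was the member nearest the filter, and UQCRHL, at up to 2.79 TPM in 1 library, was the candidate just outside it. Isoforms of other tissues were nearly absent. COX7A1, COX6A2, COX7B2 and ATP5MGL were listed at 0 in all 15 libraries, and COX4I2 and COX8C stayed at or under 0.24 TPM. The 175 pseudogene rows together came to between 0.0182% and 0.0643% of the members' summed TPM.

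Together the members held a smaller share of the transcripts in every fatty acid culture than in any control culture. Their summed share was 2.72%, 3.02% and 2.96% of TPM in FFA, 3.03%, 2.25% and 2.65% in FCL, 2.90%, 3.06% and 2.16% in FCM, and 2.75%, 2.86% and 2.90% in FCH, against 3.63%, 3.36% and 3.46% in NC. None of the 12 libraries given fatty acids overlapped NC, and the lowest share was that of FCM replicate 3, followed by FCL replicate 2. Complex V held 0.982% ± 0.0615 in FFA and 1.21% ± 0.0446 in NC (SD, n = 3 each), and complex I 0.978% ± 0.0513 in FFA and 1.24% ± 0.0540 in NC. Complex IV held 0.646% ± 0.0519 in FFA and 0.739% ± 0.0434 in NC. Complexes II and III differed less. Complex III held 0.227% ± 0.00254 in FFA and 0.236% ± 0.00322 in NC, and complex II 0.0665% ± 0.00191 in FFA and 0.0603% ± 0.00500 in NC. In bulk RNA, fewer cells of a kind and less RNA per cell cannot be told apart, and because TPM are shares, a lower TPM cannot be told apart from a rise of other transcripts.

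**Figure D1:**
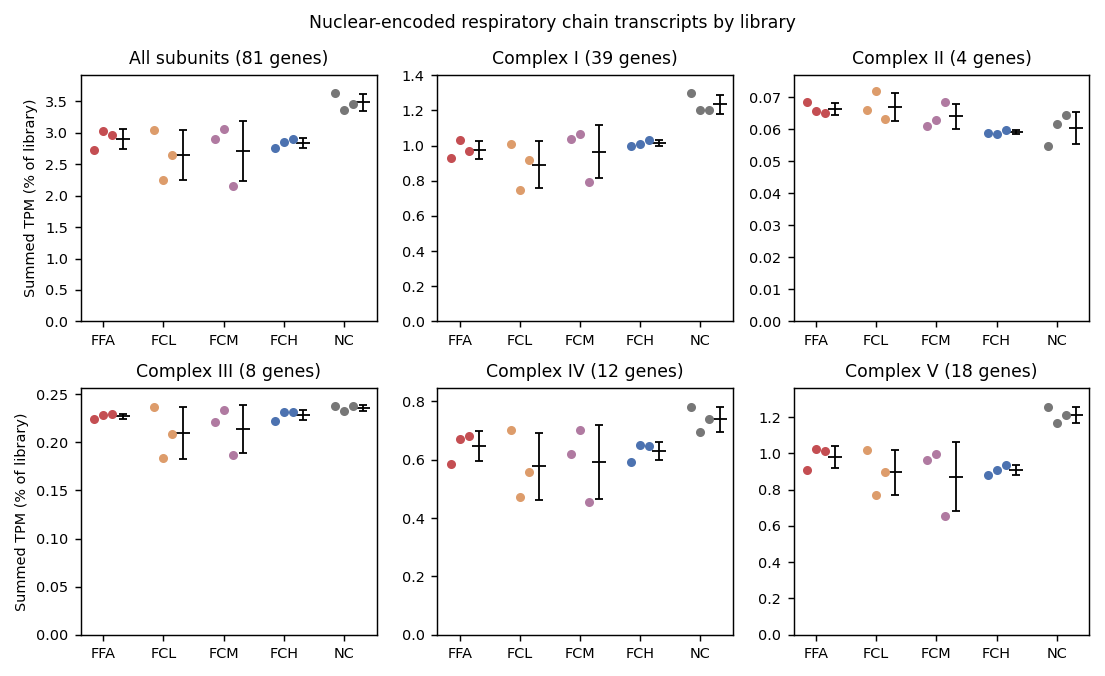
Summed TPM of the members as a percentage of the library (y axis) in each culture (points) of the 5 groups (x axis), for all 81 subunits and for each complex, with the mean and SD at the right of each group. All 12 fatty acid cultures lie between 2.16% and 3.06% for the 81 subunits together, below the 3 NC cultures at 3.36% to 3.63%, and complexes I and V show the same gap. In complexes II, III and IV the fatty acid and NC cultures overlap.

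Members were tested one by one on log2(TPM + 1) with limma across all 12950 genes, and a member was called at an adjusted p under 0.05. In FFA against NC, 11 of 81 members fell and none rose. That is 13.6% of the members lower, against 1.91% of all tested genes lower and 5.47% higher. At an unadjusted p under 0.05, 25 members were lower (30.9%, against 6.65% of all genes) and 3 higher (3.70%, against 14.9%). The 3 were SDHA, UQCRC1 and COX6B2, and COX6B2, at 0.713, 0.943 and 0.853 TPM in NC, passed the filter only through fatty acid libraries. The median log2 change was -0.24 over the members and 0.06 over all tested genes. A change below 0 was held by 64 of 81 members, against 5451 of 12950 genes. The 3 FFA libraries lay wholly below the 3 NC libraries in 45 members (55.6%, against 9.95% of all genes) and wholly above them in 6 (7.41%, against 19.7%). The number called rests on single libraries. Leaving out FFA replicate 3 left 1, leaving out FFA replicate 1 or NC replicate 1 left 3, and leaving out NC replicate 2 or 3 left 4, while the median change stayed between -0.28 and -0.20. It was 7, 7 and 6 without FCH replicate 1, 2 or 3 in turn, libraries that enter only the estimate of the spread. Without FCM replicate 3 it was 22, of which 20 were lower. After median-of-ratios rescaling it was 3.

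With the 4 fatty acid groups set against NC as 1 contrast, a comparison that shares the FFA and NC libraries with the one above, 29 members fell and 2 rose. That is 35.8% of the members lower, against 4.73% of all tested genes, and 2.47% higher, against 8.97%. The median log2 change was -0.33 over the members and 0.01 over all tested genes. All 12 fatty acid libraries lay below all 3 NC libraries in 32 members (39.5%, against 3.02% of all genes) and above them in 2 (2.47%, against 8.22%). By complex, 16 of 39 members fell in complex I (median change -0.34), none of 4 in complex II (-0.10), 2 of 8 in complex III (-0.27), 3 of 12 in complex IV (-0.29) and 8 of 18 in complex V (-0.44). The 2 members that rose were SDHA of complex II and UQCRC1 of complex III. Without NC replicate 1, 2 or 3 the number lower was 13, 16 or 13 and no member was called higher. It was 33 without FCM replicate 3, 30 without FCL replicate 2, and 25 lower and 1 higher with libraries 12 to 15 left out. That last fit has no FCH group and sets the mean of FFA, FCL and the remaining FCM libraries against NC. With a term for libraries 12 to 15, which rests on FCM replicate 3 against the other FCM libraries, it was 12. After median-of-ratios rescaling it was 16.

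**Figure D2:**
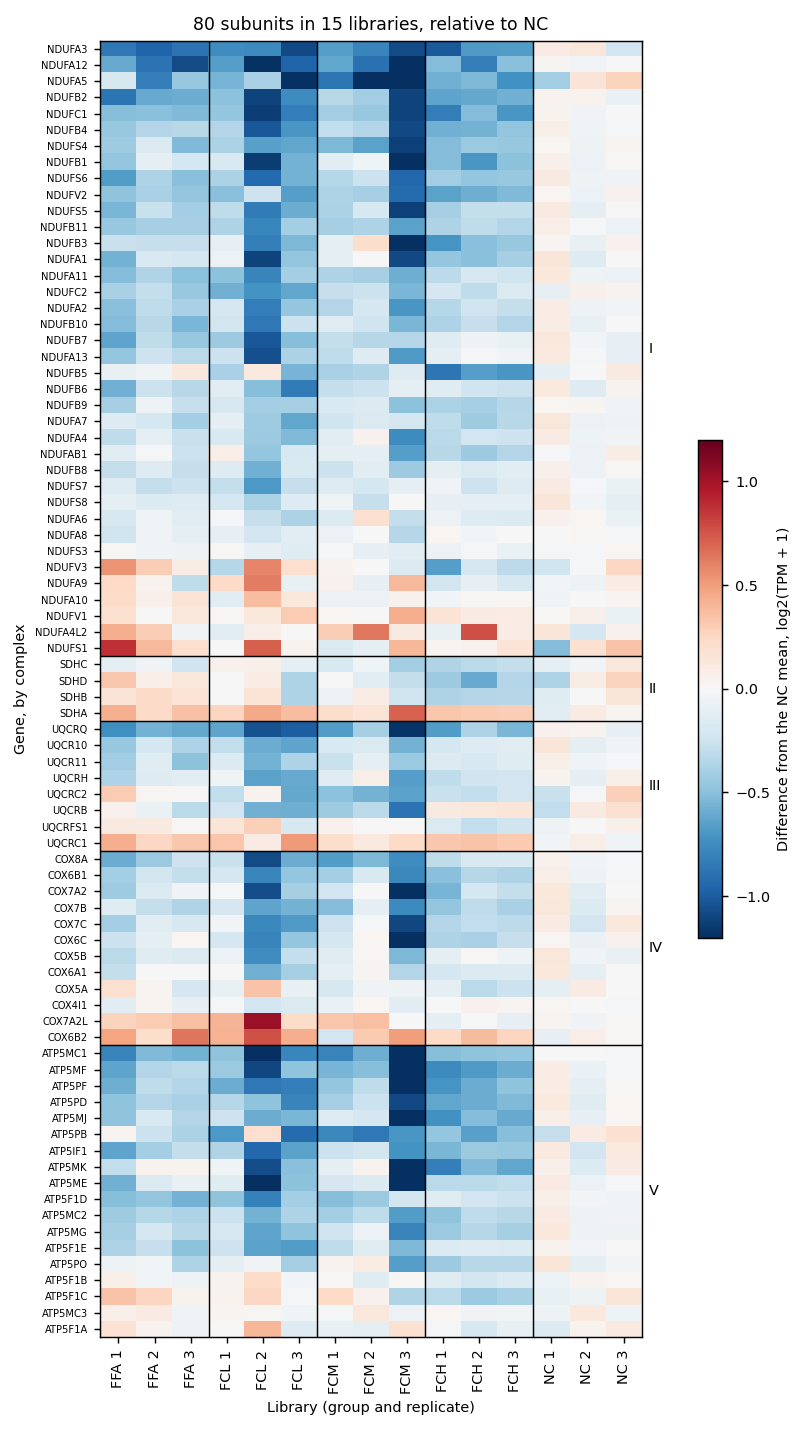
Difference of each of 80 subunits (rows, by complex) from its NC mean, in log2(TPM + 1), in each of the 15 libraries (columns, by group and replicate). Blue is below and red above the NC mean. Most rows of complexes I and V are blue in all 12 fatty acid libraries, and no row of complex II is. SDHA and UQCRC1 are the rows that are red in all 12.

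Complex I showed the largest falls. NDUFA3, an accessory subunit of the membrane arm, was at 97.1, 90.2 and 95.2 TPM in FFA, 105, 103 and 82.6 TPM in FCL, 111, 101 and 83.1 TPM in FCM and 87.4, 110.0 and 111 TPM in FCH, against 189, 194 and 150.4 TPM in NC. Every fatty acid library lay below every NC library. NDUFA3 fell by 0.90 on the log2 scale in FFA against NC (SE 0.14, adjusted p = 0.00119) and by 0.85 over the 4 groups (SE 0.11, adjusted p = 0.000173), and both calls held under all 26 alternatives. NDUFA12, another accessory subunit, was at 129.9, 106 and 93.4 TPM in FFA, 124, 86.4 and 101 TPM in FCL, 128, 106 and 79.4 TPM in FCM and 137, 111 and 139 TPM in FCH, against 202, 193 and 198 TPM in NC. Again no library overlapped, and the NC cultures were close together. NDUFA12 fell by 0.85 in FFA against NC (SE 0.18, adjusted p = 0.0077) and by 0.84 over the 4 groups (SE 0.14, adjusted p = 0.00107). Without FFA replicate 3 the call in FFA against NC was lost, at an adjusted p of 0.0514.

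NDUFB2, an accessory subunit of the membrane arm, was at 245, 295 and 298 TPM in FFA, against 461, 464 and 424 TPM in NC, and between 208 and 357 TPM over the 12 fatty acid libraries. It fell by 0.69 in FFA against NC (SE 0.18, adjusted p = 0.0306) and by 0.68 over the 4 groups (SE 0.14, adjusted p = 0.00603). The call in FFA against NC was lost under 8 of 26 alternatives, among them median-of-ratios rescaling, no filter and leaving out any NC library or FFA replicate 1 or 3, and that over the 4 groups under none of the 26. The other complex I members that fell in FFA against NC were NDUFA11 (-0.46), NDUFB7 (-0.46), NDUFB11 (-0.42) and NDUFC2 (-0.38), all accessory subunits, with adjusted p between 0.0208 and 0.0491. Over the 4 groups the low-abundance NDUFA5 fell by 0.80 (SE 0.22, adjusted p = 0.0245, a call lost under 5 of 25 alternatives), with 1.27 to 6.34 TPM in the 12 fatty acid libraries and 5.29, 8.35 and 9.09 TPM in NC. Its groups overlapped, because FFA replicate 1 (6.34 TPM) and FCL replicate 2 (5.41 TPM) lay above NC replicate 1.

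The core subunits, which carry the flavin and the iron-sulfur clusters and are conserved from bacteria, were counted apart from the accessory subunits. Of the 7 nuclear genes that the table's descriptions call core, none fell in FFA against NC and 1, NDUFV2, fell over the 4 groups, with a median change of -0.09. Of the other 32 complex I members, 7 fell in FFA against NC and 15 over the 4 groups, with a median of -0.39. The difference between these 2 sets was not tested, and the core genes have longer annotated transcripts, with a median length of 2528 bases against 1228. Length and GC content are those of the longest GENCODE transcript of each gene throughout, which need not be the one expressed. NDUFV2, an iron-sulfur subunit of the NADH module, was at 74.2, 79.3 and 74.4 TPM in FFA, against 105, 99.3 and 108 TPM in NC, and fell by 0.52 over the 4 groups (SE 0.11, adjusted p = 0.00661). NDUFV1, the NADH-binding flavin subunit, was at 322, 283 and 310.3 TPM in FFA, against 286, 294 and 268 TPM in NC, and its groups overlapped (0.13 over the 4 groups, SE 0.09, adjusted p = 0.372). NDUFS1, the largest iron-sulfur subunit, was at 42.3, 30.0 and 25.9 TPM in FFA, against 15.4, 25.8 and 28.8 TPM in NC. It had the widest spread among these and no call (0.21, SE 0.20, adjusted p = 0.513). NDUFAB1, the mitochondrial acyl carrier protein (-0.25, adjusted p = 0.187), and NDUFB8, a membrane arm subunit (-0.24, adjusted p = 0.0951), did not pass. NDUFA4, which is now counted to complex IV although its symbol places it here, stood at -0.29 (adjusted p = 0.165), and its paralog NDUFA4L2, a hypoxia-induced gene, at 0.20 (adjusted p = 0.425).

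Complex II is the succinate dehydrogenase that also works in the citric acid cycle, and no member of it fell. SDHA, its flavin subunit, was at 340.4, 298 and 324 TPM in FFA, 304, 348 and 329 TPM in FCL, 293, 285 and 414 TPM in FCM and 321, 314 and 311 TPM in FCH, against 231, 271 and 259.8 TPM in NC. All 12 fatty acid libraries lay above the 3 NC libraries, with FCM replicate 3 the highest. SDHA rose by 0.34 over the 4 groups (SE 0.10, adjusted p = 0.0358), while FFA alone against NC did not pass (0.34, SE 0.13, adjusted p = 0.133). The call over the 4 groups was lost under 11 of 26 alternatives, among them leaving out any NC library. The iron-sulfur subunit SDHB (-0.08) and the membrane anchors SDHC (-0.17) and SDHD (-0.13) had adjusted p between 0.217 and 0.663 over the 4 groups.

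Complex III held members of both directions. UQCRQ, a small subunit of the membrane domain, was at 163, 184 and 178 TPM in FFA, 176, 131 and 137 TPM in FCL, 171, 206 and 120.5 TPM in FCM and 171, 212 and 187 TPM in FCH, against 283, 281 and 255 TPM in NC. No fatty acid library reached NC, and the lowest was FCM replicate 3. UQCRQ fell by 0.64 in FFA against NC (SE 0.17, adjusted p = 0.0282) and by 0.70 over the 4 groups (SE 0.13, adjusted p = 0.00259). The call in FFA against NC was lost under 7 of 26 alternatives, among them median-of-ratios rescaling, no filter and leaving out any NC library or FFA replicate 1 or 3, and that over the 4 groups under none of the 26. UQCRC1, a core protein of the matrix side, was at 1003, 879.6 and 931 TPM in FFA, 934, 796 and 1054 TPM in FCL, 859, 804 and 873 TPM in FCM and 928, 938 and 924 TPM in FCH, against 726, 782 and 719 TPM in NC. It lay above NC in all 12 libraries, FCL replicate 2 by the least. UQCRC1 rose by 0.29 over the 4 groups (SE 0.08, adjusted p = 0.0267), a call lost under 7 of 26 alternatives, among them median-of-ratios rescaling and leaving out any NC library, and FFA alone stood at 0.34 (SE 0.10, adjusted p = 0.0591). UQCR10, a small subunit, fell by 0.33 over the 4 groups (SE 0.10, adjusted p = 0.0434). The Rieske iron-sulfur protein UQCRFS1 stood at -0.01 (adjusted p = 0.939), and UQCRH, the hinge protein, at -0.29 (adjusted p = 0.186).

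The promoters of the pair of complex I genes with the largest falls and of the pair of members that rose are shown, because nuclear respiratory factors act through such sites in respiratory genes. They are RefSeq windows on GRCh38.p14, 250 bases before to 50 after the start of the gene, read 5′ to 3′ on the gene's strand. Capitals mark the palindromic consensus of nuclear respiratory factor 1 (NRF1) and AAGATGGC, the site of YY1, both searched on either strand.
NDUFA3 (chr19:54102605-54102904, plus strand): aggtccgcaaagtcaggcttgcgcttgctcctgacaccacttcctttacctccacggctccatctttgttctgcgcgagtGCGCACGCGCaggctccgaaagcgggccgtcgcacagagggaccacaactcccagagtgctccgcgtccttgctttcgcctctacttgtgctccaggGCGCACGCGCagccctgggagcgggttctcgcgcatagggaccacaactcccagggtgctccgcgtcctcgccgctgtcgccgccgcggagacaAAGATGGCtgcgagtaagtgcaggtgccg
NDUFA12 (chr12:95003648-95003947, minus strand): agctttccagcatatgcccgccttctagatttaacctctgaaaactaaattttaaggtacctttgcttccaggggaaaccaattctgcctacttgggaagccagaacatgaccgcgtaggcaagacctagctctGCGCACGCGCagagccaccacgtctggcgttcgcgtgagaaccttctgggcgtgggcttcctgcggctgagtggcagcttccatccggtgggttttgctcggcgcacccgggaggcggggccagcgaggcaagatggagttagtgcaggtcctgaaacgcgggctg
UQCRC1 (chr3:48609597-48609896, minus strand): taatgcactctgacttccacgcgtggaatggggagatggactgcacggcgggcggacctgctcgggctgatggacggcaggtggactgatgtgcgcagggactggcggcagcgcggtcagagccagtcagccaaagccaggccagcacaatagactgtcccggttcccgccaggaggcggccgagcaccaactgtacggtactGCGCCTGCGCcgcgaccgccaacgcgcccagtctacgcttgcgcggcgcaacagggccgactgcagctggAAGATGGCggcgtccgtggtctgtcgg
SDHA (chr5:218070-218369, plus strand): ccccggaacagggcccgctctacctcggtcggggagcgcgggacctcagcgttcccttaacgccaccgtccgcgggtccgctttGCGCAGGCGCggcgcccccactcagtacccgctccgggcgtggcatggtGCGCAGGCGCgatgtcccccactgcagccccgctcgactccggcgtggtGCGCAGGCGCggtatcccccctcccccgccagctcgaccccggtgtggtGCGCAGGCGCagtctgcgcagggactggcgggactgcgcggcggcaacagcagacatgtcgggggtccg
NDUFA3 and UQCRC1, which moved in opposite directions, both held NRF1 and YY1 letters. The NRF1 matches began at bases 81 and 178 of the window in NDUFA3 and at base 204 in UQCRC1. NDUFA12 held 1 NRF1 match and SDHA 4. Over the 67 members with a RefSeq promoter, 16 (23.9%) held the NRF1 letters, against 5.78% of 35116 promoters of the same length. The units differ, because a member with several promoters was counted if any of them matched (80 promoters for the 67 members). The 35116 were counted singly, and they are not limited to the genes tested here. The shares are therefore not a like-for-like comparison. The YY1 letters were in 12 (17.9%, against 2.89%), and CCGGAAG, the ETS site bound by GABPA, in 21 (31.3%, against 10.3%), and 40 held at least 1 of the 3. Among the 25 matched members that fell over the 4 groups, 5 held NRF1 letters (20%), 6 ETS letters (24%) and 3 YY1 letters (12%), and among the other 42, 11 (26.2%), 15 (35.7%) and 9 (21.4%). These matches describe letters in the windows and are not sites of measured binding.

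In complex IV, cytochrome c oxidase, no member passed in FFA against NC and 3 of 12 fell over the 4 groups. COX8A, a small membrane subunit, was at 653, 725 and 830.5 TPM in FFA, against 1024, 961 and 979 TPM in NC, and at 469.6 to 872 TPM over the 12 fatty acid libraries. Its groups did not overlap, and it fell by 0.49 over the 4 groups (SE 0.12, adjusted p = 0.0163), a call lost under 6 of 26 alternatives. COX6B1, on the intermembrane side, fell by 0.41 (adjusted p = 0.0321), and COX7B, a small membrane subunit, by 0.40 (adjusted p = 0.0473). The larger subunits COX4I1 (-0.06, adjusted p = 0.602) and COX5A (-0.07, adjusted p = 0.711) did not pass, nor did COX5B (-0.21) and COX6A1 (-0.18). COX7A2 stood at -0.40 with an SE of 0.24 (adjusted p = 0.277), and its 12 fatty acid libraries spread between 632 TPM in FCM replicate 3 and 1688 TPM, against 1557 to 1855 TPM in NC. COX7A2L, a factor that joins complexes III and IV in supercomplexes, was at 168, 172 and 179 TPM in FFA, against 142, 135 and 141 TPM in NC. Those 2 groups did not overlap, but the change did not pass (0.31, SE 0.16, adjusted p = 0.289).

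In complex V, 3 of 18 members fell in FFA against NC and 8 over the 4 groups. The ring of subunit c, which turns as protons pass, is made from 3 genes with the same mature protein. ATP5MC1 was at 834, 1000.5 and 975 TPM in FFA, 1029, 631 and 840.0 TPM in FCL, 825, 959 and 563 TPM in FCM and 1012, 1033 and 1045 TPM in FCH, against 1450.0, 1448 and 1427 TPM in NC. The fatty acid libraries were all lower than NC, with FCM replicate 3 and FCL replicate 2 the lowest. ATP5MC1 fell by 0.63 in FFA against NC (SE 0.18, adjusted p = 0.0464) and by 0.71 over the 4 groups (SE 0.14, adjusted p = 0.00401). Its call in FFA against NC was lost under 14 of 26 alternatives and that over the 4 groups under none of the 26. ATP5MC2 was at 1095, 1161 and 1136 TPM in FFA, against 1582, 1412 and 1431 TPM in NC, and fell by 0.38 in FFA against NC (SE 0.11, adjusted p = 0.0486) and by 0.40 over the 4 groups (SE 0.09, adjusted p = 0.00684). Its FFA and NC libraries did not overlap, but the call in FFA against NC was lost under 15 of 26 alternatives and that over the 4 groups under 2. For both genes the alternatives that lost the call in FFA against NC included median-of-ratios rescaling, no filter, the replicate block and leaving out any single FFA, NC or FCH library. ATP5MC3 was at 402, 411 and 372 TPM in FFA, against 369, 420.2 and 368 TPM in NC, overlapped throughout and stood at 0.01 over the 4 groups (SE 0.07, adjusted p = 0.959). Over the 3 genes the summed TPM was 2462 ± 122 in FFA, 2341 ± 322 in FCL, 2248 ± 364 in FCM and 2547 ± 77.7 in FCH, against 3303 ± 89.4 in NC (SD, n = 3 each). ATP5MC1 made up 38.0% ± 1.90 of that sum in FFA and 43.7% ± 0.898 in NC, and ATP5MC3 16.1% ± 1.13 in FFA and 11.7% ± 1.01 in NC.

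The large subunits of the catalytic head did not pass. ATP5F1A, the alpha subunit, stood at 0.01 over the 4 groups (SE 0.11, adjusted p = 0.969), and ATP5F1B, the beta subunit, at -0.04 (SE 0.07, adjusted p = 0.776). ATP5F1D, the delta subunit of the rotor stalk, was at 196, 201 and 189 TPM in FFA, against 295, 274 and 273 TPM in NC, with no overlap. It fell by 0.52 in FFA against NC (SE 0.11, adjusted p = 0.0109) and by 0.42 over the 4 groups (SE 0.09, adjusted p = 0.00591). ATP5IF1, the inhibitor that stops the enzyme from running in reverse, was at 304, 354 and 384 TPM in FFA, against 509, 400.2 and 508 TPM in NC. It fell by 0.49 over the 4 groups (SE 0.13, adjusted p = 0.0189, lost under 5 of 26 alternatives), although FCM replicate 2, at 403 TPM, lay above NC replicate 2. ATP5MF fell by 0.67 over the 4 groups (SE 0.19, adjusted p = 0.0276, lost under 6 of 26 alternatives), with 856 to 2118 TPM in the fatty acid libraries, against 2822, 2500.0 and 2626 TPM in NC. ATP5PF (-0.64) and ATP5PD (-0.53) of the peripheral stalk and ATP5F1E (-0.35), the epsilon subunit, also fell over the 4 groups.

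**Figure D3:**
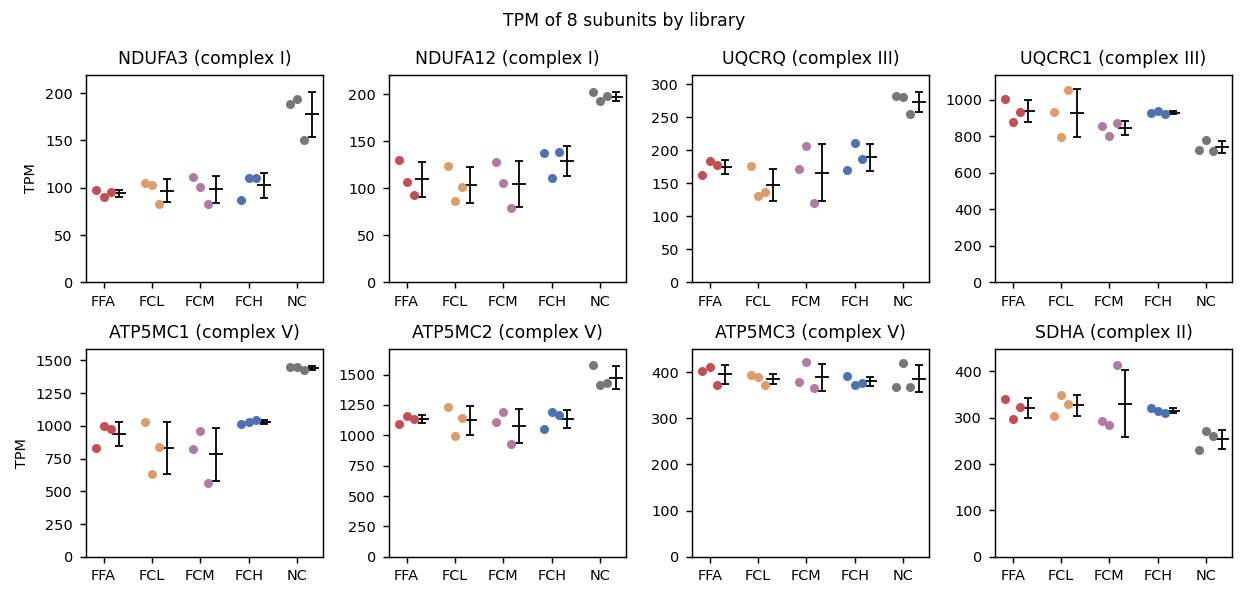
TPM (y axis, from 0) of 8 subunits in each culture (points) of the 5 groups (x axis), with the mean and SD at the right of each group. NDUFA3, NDUFA12, UQCRQ, ATP5MC1 and ATP5MC2 lie below NC in all 12 fatty acid cultures, UQCRC1 and SDHA lie above NC in all 12, and ATP5MC3 lies between 366 and 422 TPM in all 15.

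**Figure D4:**
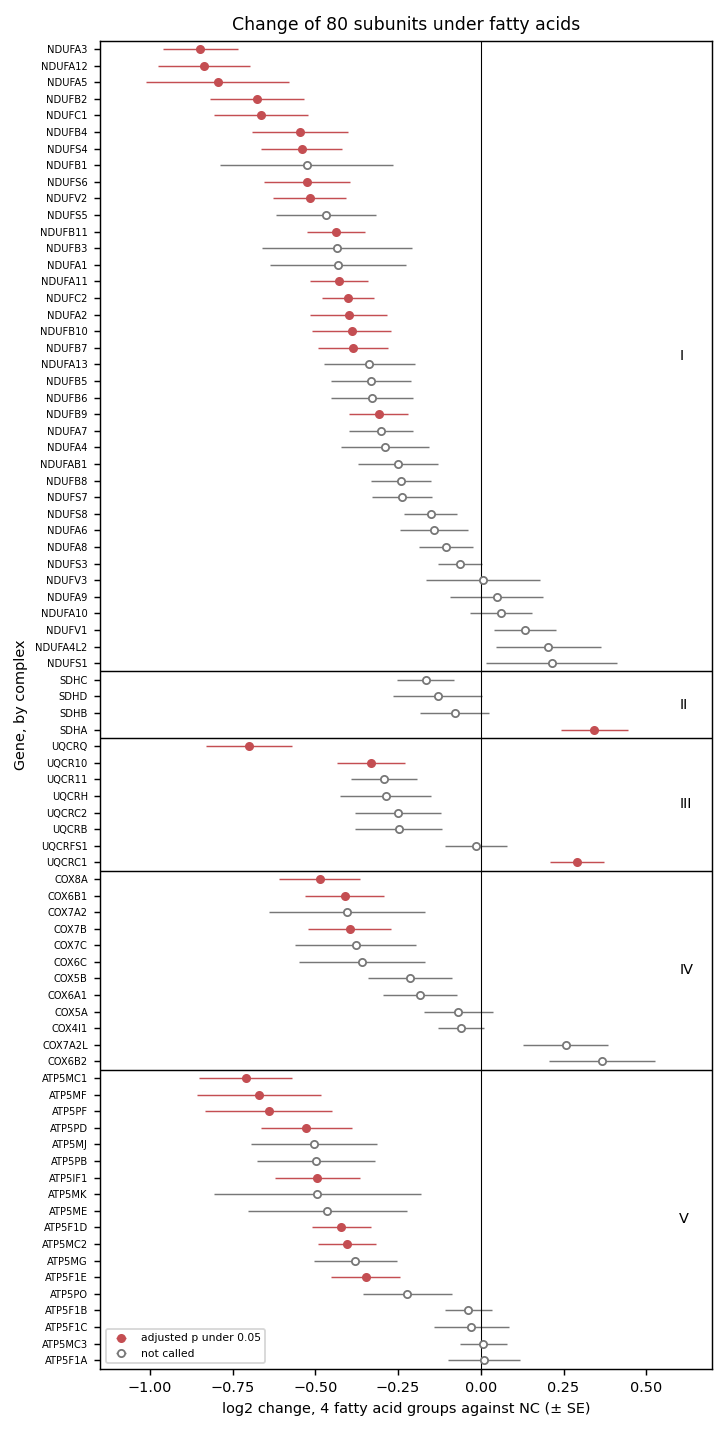
Log2 change (x axis, with SE) of each of 80 subunits (y axis, by complex) in the 4 fatty acid groups together against NC. Filled points passed the test at an adjusted p under 0.05, which 29 members did below 0 and 2 above, SDHA and UQCRC1.

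Other measures moved with these calls. Among the members, those with a longer annotated transcript had changes nearer to or above 0. The Spearman correlation across the 81 members between change and this length was 0.39 in FFA against NC and 0.40 over the 4 groups. Over the 12485 tested genes with a length it was 0.16 and 0.09. Genes are not independent replicates, and these values are descriptions. Of the 41 members up to the median length of 1439 bases, 17 fell over the 4 groups and none rose (median -0.40), and of the 40 longer ones 12 fell and 2 rose (median -0.24). After each library's trend over length and GC content was removed, 11 members fell in FFA against NC, 10 of them shared with the 11 above, and 28 fell and 2 rose over the 4 groups, with 24 of the falls shared. The members' median change was then -0.24 in FFA against NC and -0.23 over the 4 groups. Of 5 leukocyte markers, CD68 and CSF1R passed the filter. The list summed to between 143 and 211 TPM in FFA, 148 and 222 TPM in FCL, 134 and 259 TPM in FCM and 143 and 169 TPM in FCH, against 54.2 to 62.9 TPM in NC. Nearly all of this sum was CD68, at 206, 139 and 197 TPM in FFA, against 58.9, 52.8 and 61.5 TPM in NC. CSF1R lay between 1.38 and 5.56 TPM over all libraries. CD3E and MS4A1 were listed at 0 and PTPRC, the marker of all leukocytes, stayed at or under 0.01 TPM in all 15 libraries. The part of these marker transcripts in the results was not tested.

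The C3R groups address whether the compound shifted these transcripts in cells given fatty acids. None of the 81 members passed in FCL against FFA, where 0.00772% of all tested genes were called lower and none higher. At an unadjusted p under 0.05, 2 members were lower (2.47%, against 3.55% of all genes) and none higher (against 1.6%). The 3 FCL libraries lay wholly below FFA in 2 members (2.47%, against 4.36% of all genes) and wholly above in none (against 3.37%), and the median change was -0.13 over the members and -0.01 over all genes. In FCM against FFA 1 member fell and none rose (1.23% lower, against 1.83% of all genes lower and 0.0695% higher), with a median of -0.08 over the members and -0.07 over all genes. At an unadjusted p under 0.05, 5 members were lower (6.17%, against 16.3%) and none higher (against 2.83%). FCM lay wholly below FFA in 10 members (12.3%, against 19.4%) and wholly above in none (against 4.53%). In FCH against FFA no member passed, against 0.0849% of all genes lower and 0.108% higher. At an unadjusted p under 0.05, 8 members were lower (9.88%, against 10.8%) and 2 higher (2.47%, against 4.25%), with a median of -0.08 over the members and -0.07 over all genes. A slope on the C3R dose in the 12 fatty acid libraries called no member either, against 0.208% of all genes lower and 0.162% higher, and at an unadjusted p under 0.05, 8 members were lower (9.88%, against 11.0%) and 3 higher (3.70%, against 4.55%). Changes below 0 were held by 68 of 81 members in FCL against FFA, against 6779 of 12950 genes, and by 60 in FCM, against 7672. In FCH it was 50 members, against 7802 genes, and for the slope 46, against 7940. In each of these comparisons the members' share of calls was close to or under that of all genes. The number for FCH and for the slope was 3 without FCM replicate 3 and 1 without FCL replicate 2.

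The member that fell in FCM was UQCRC2, the other core protein of complex III. It was at 55.0, 45.1 and 44.9 TPM in FFA, 36.1, 45.6 and 28.7 TPM in FCL, 31.3, 29.5 and 28.1 TPM in FCM and 36.6, 36.0 and 37.7 TPM in FCH, with 36.6, 43.9 and 54.2 TPM in NC. FCM lay wholly below FFA, and also below NC. UQCRC2 was lower in FCM than in FFA by a log2 change of -0.68 (SE 0.16, adjusted p = 0.0458), with adjusted p between 0.000694 and 0.234 over 27 alternatives. The call was lost under 17 of them, among them leaving out NC replicate 2 or any single FFA, FCM or FCH library, and leaving out libraries 12 to 15.

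In FCH the smallest p-values belonged to 5 members that were lower than in FFA and did not pass. NDUFB5, an accessory subunit of complex I, was at 39.3, 40.5 and 46.0 TPM in FFA, 31.8, 45.4 and 28.1 TPM in FCL, 31.8, 32.5 and 37.5 TPM in FCM and 22.5, 26.2 and 25.5 TPM in FCH, with 38.9, 41.9 and 45.3 TPM in NC. FCH lay below every library of the other 4 groups. Its change in FCH against FFA was -0.74 (SE 0.15, adjusted p = 0.0645), and its slope was -0.70 per 100 µM C3R (SE 0.15, adjusted p = 0.0616). SDHB was at 105, 111 and 106 TPM in FFA, 94.1, 106 and 72.4 TPM in FCL, 89.8, 100.1 and 79.4 TPM in FCM and 72.5, 73.5 and 73.8 TPM in FCH, with 84.9, 94.1 and 104 TPM in NC. FCH lay below FFA and NC, while FCL replicate 3 lay just below FCH. The change was -0.54 (SE 0.13, adjusted p = 0.0982).

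SDHD was at 28.8, 24.2 and 25.3 TPM in FFA, 22.7, 24.4 and 17.5 TPM in FCL, 22.9, 20.8 and 18.5 TPM in FCM and 16.7, 14.7 and 17.7 TPM in FCH, with 17.5, 24.4 and 28.0 TPM in NC. FCH overlapped NC and FCL here, and the change was -0.64 (SE 0.17, adjusted p = 0.109). ATP5F1C, the gamma subunit that forms the central stalk of the rotor, was at 103, 97.7 and 83.9 TPM in FFA, 84.2, 96.8 and 80.1 TPM in FCL, 96.2, 84.6 and 63.2 TPM in FCM and 64.9, 59.6 and 62.0 TPM in FCH, with 76.6, 78.4 and 90.4 TPM in NC. FCM replicate 3 was the only library of the other groups within the FCH range, and the change was -0.60 (SE 0.14, adjusted p = 0.0901). NDUFV3, a small subunit of the NADH module, was at 6.75, 9.69 and 8.87 TPM in FCH and 16.9, 14.1 and 12.1 TPM in FFA, and its change was -0.70 (SE 0.22, adjusted p = 0.148). In the other direction, NDUFB7 (0.36, adjusted p = 0.222) and ATP5F1D (0.31, adjusted p = 0.217) were nearest to a call. These changes went with the GC content of the longest annotated transcript. The Spearman correlation of GC content with the change in FCH against FFA was 0.43 over the members and 0.38 over 12485 tested genes. In FCM against FFA it was 0.40 and 0.61. The lower members named here, from NDUFB5 to NDUFV3, held 39.8% to 48.6% GC, and NDUFB7 and ATP5F1D 65.0% and 63.9%. The part of GC content in these changes was not tested. The labels number the FCH libraries 13 to 15, directly after FCM replicate 3, so that the dose and any difference in these libraries cannot be told apart in FCH against FFA.

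**Figure D5:**
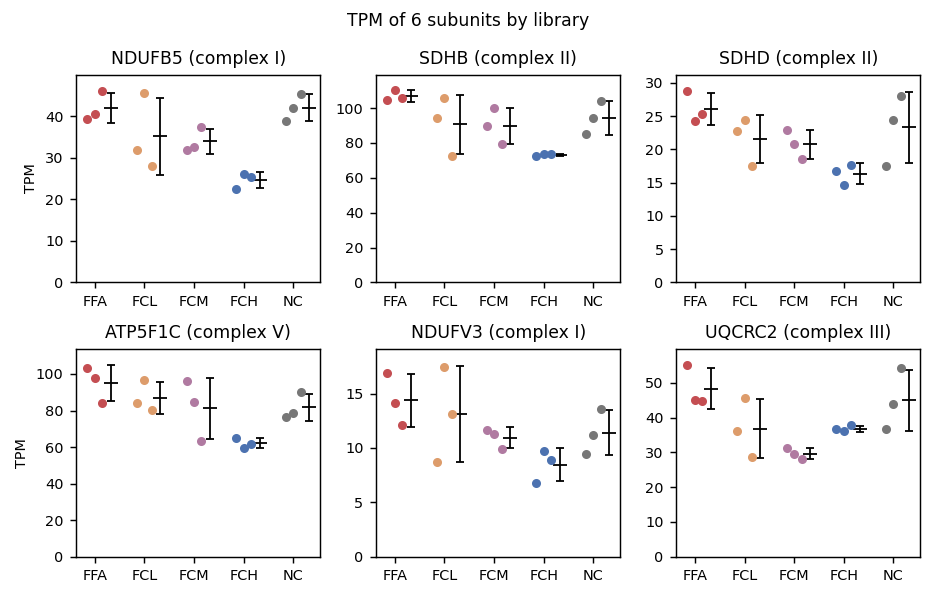
TPM (y axis, from 0) of UQCRC2 and of the 5 subunits with the smallest p-values in FCH against FFA, in each culture (points) of the 5 groups (x axis), with the mean and SD at the right of each group. FCH lies below FFA in all 6 panels. UQCRC2 has its lowest mean in FCM, where it lies at 28.1 to 31.3 TPM.

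By complex, the median change in FCH against FFA was 0.01 in complex I, -0.36 in complex II, 0.05 in complex III, -0.11 in complex IV and -0.16 in complex V. The summed share of complex II was 0.0592% ± 0.000652 in FCH and 0.0665% ± 0.00191 in FFA, and that of complex I 1.01% ± 0.0180 in FCH and 0.978% ± 0.0513 in FFA (SD, n = 3 each). The SD within FCH was the smallest of the 5 groups for all members together and for complexes I, II, IV and V, but not for complex III. In the deposited table the other 14 libraries share an offset in all members that FCH replicate 3 does not carry, and its part in that spread was not tested. A total of 12 members lay wholly above FFA in FCH (14.8%, against 11.0% of all genes) and 22 wholly below (27.2%, against 22.4%).

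Genes that work beside these subunits were counted from lists of known factors. Over the 4 groups 4.73% of all tested genes fell and 8.97% rose, and no list is set apart from those shares here. Of 13 subunits encoded by the mitochondrial genome, 1 rose and 1 fell over the 4 fatty acid groups. MT-ND1 of complex I rose by 0.51 (SE 0.13, adjusted p = 0.0176), with 4021 ± 279 TPM in FFA and 2916 ± 149 TPM in NC. MT-CO3 of complex IV fell by 0.80 (SE 0.20, adjusted p = 0.0163), with 4145 ± 1395 TPM in FFA and 7409 ± 195 TPM in NC (SD, n = 3 each). The median change of the 13 was -0.19, with 10 below 0. In FFA against NC their median was -0.39, with 11 below 0, and MT-CO3 was called lower (-0.89, SE 0.25, adjusted p = 0.0457). The genes of the mitochondrial genome held 8.76%, 10.3% and 7.33% of the TPM in FFA, against 12.0%, 10.8% and 11.7% in NC. Over all libraries they held 6.03% to 12.0%, and FCL replicate 2, at 11.6%, lay within the NC range. Leaving these genes out and rescaling gave 11 members lower in FFA against NC and 34 lower over the 4 groups.

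Of 16 complex I assembly factors, 3 fell over the 4 groups and none rose. NDUFAF8, which serves the assembly factor NDUFAF5, fell by 0.58 (SE 0.12, adjusted p = 0.00581), with 90.2 ± 18.9 TPM in FFA and 146 ± 9.79 TPM in NC, and NDUFAF4 (-0.63) and TMEM126B (-0.56) fell as well. Of 26 complex IV assembly factors 2 fell, COX16 (-0.68, adjusted p = 0.00953) and COA3 (-0.29, adjusted p = 0.0462), and of 6 complex III factors 1 fell, UQCC2 (-0.53, adjusted p = 0.0206). No factor of complex II (4 genes) or complex V (6 genes) passed. Of 13 coenzyme Q genes, COQ8A (0.35, adjusted p = 0.0318) and COQ5 (0.32, adjusted p = 0.039) rose and COQ10A fell (-0.43, adjusted p = 0.0062). CYCS, which encodes cytochrome c (-0.05), and CYC1, the cytochrome c1 of complex III that the naming rule does not catch (0.01), did not pass. None of the 13 tested regulators of mitochondrial biogenesis passed over the 4 groups. Among them PPARGC1A, the coactivator PGC-1alpha, stood at 0.01 and NRF1 at 0.23, while ESRRA, a nuclear receptor of respiratory genes, stood at 0.28 (SE 0.10, adjusted p = 0.0916). No gene of these lists passed in FCL, FCM or FCH against FFA or in the slope.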

How the data were processed

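RNA of 15 cultures labelled HepG2 was sequenced after poly(A) selection with a stranded kit, per the labels' protocols. Per the labels, the authors used HiSat2 for alignment to an Ensembl genome of human and RSEM for quantification. Not given in the sources used here are tool versions, the release of the annotation and whether strand was used. The deposited values are TPM, so overlapping genes and near-identical copies are uncertain and depth is unknown. In 12773 genes, all 81 members among them, the 14 libraries other than FCH replicate 3 carried a shared offset from whole multiples of 0.01 TPM, and FCH replicate 3 summed to 990018 TPM. This offset was left in. Genes with at least 1 TPM in at least 3 libraries were fitted as log2(TPM + 1), which understates changes of low genes, with 1 mean per group (R 4.3.3, limma 3.58.1, trended empirical Bayes, two-sided, Benjamini-Hochberg over 12950 genes). The C3R slope used the 12 fatty acid libraries. The contrasts of FFA and of the 4 groups against NC were tested on simulated data with independent noise in each gene. That noise does not carry the deviations of whole libraries seen here. Named genes were up to 5 called members with the largest change in each direction without overlap per comparison, the 3 highest and 3 lowest, those next to the filter, and a panel of roles; genes named beyond these were chosen after their values were seen. Other lists contributed up to 4 called genes. Members and lists were chosen with earlier results of these data known. Alternatives were another pseudocount (0.1), no filter, a mean of at least 5 TPM, median-of-ratios and quantile scaling, leaving out mitochondrial genome genes, array weights, a replicate block, the compared groups alone, a term for libraries 12 to 15 and leaving out each library. Removing the GC and length trend and leaving out libraries 12 to 15 were chosen after seeing the data. Of the members, 1 is counted in the totals and is otherwise not reported here.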

Additional observations from a re-analysis of the deposited data

How the results depend on the processing

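None of the members called in FFA against NC, FCM against FFA or over the 4 groups changed sign under the alternatives run. Members called in FFA against NC were 11, and 4 with no filter, 3 after median-of-ratios rescaling and 33 with array weights (30 lower). They were 24 with the compared groups alone (22 lower) and 22 with a term for libraries 12 to 15 (20 lower). Those over the 4 groups were 31, and 14, 17 and 49 (13, 16 and 46 lower) under the first 3 of these and 12 with the term. FCL against FFA gave 8 with array weights. FCM against FFA gave 1, 10 with array weights, and 0 with no filter, with the mitochondrial genome left out, with the compared groups alone, with the term, with the GC and length trend removed and with libraries 12 to 15 left out. FCH against FFA gave 0, 1 at a mean of at least 5 TPM and after median-of-ratios or quantile scaling, 24 with array weights, 7 with the compared groups alone and 3 with the trend removed. The slope gave 0, 3 at a mean of at least 5 TPM, 1 after quantile scaling and 23 with array weights. With the term, median changes were 0.39 in FCH against FFA, 0.26 for the slope and -0.16 over the 4 groups. All FCH libraries carry the term, so in the fits by group it rests on FCM replicate 3 against FCM replicates 1 and 2. The 0.39 in FCH therefore carries the deviation of that single library. Array weights were stopped short of their tolerance. Leaving out single libraries gave 1 to 22 called in FFA against NC, 0 in FCL, 0 to 2 in FCM, 0 to 3 in FCH, 0 to 3 for the slope and 13 to 36 over the 4 groups, with medians of -0.28 to -0.20, -0.24 to -0.05, -0.16 to 0.04, -0.09 to -0.04, -0.06 to -0.01 and -0.38 to -0.30. Same-numbered libraries did not deviate together (1 of 30 pairs above 0.1, medians -0.031, -0.0364 and -0.0329), and with a replicate block 6 members were called in FFA against NC, 0 in FCM and 28 over the 4 groups. The cause of these shifts was not tested. TPM give no depth, which limits what can be said of low genes such as COX6B2 and NDUFA5.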
